A study of Homo sapiens with 29 samples.

Results

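The regions described here are the wide stretches of open chromatin that every library of the study detected. Peaks of all 29 libraries were merged wherever they overlapped or touched, which gave 166696 regions, and 35901 of these were held by all 29 libraries. The members are the 1668 of these shared regions whose merged width was 1500 bp or more, and 34233 narrower shared regions remain beside them. Both the presence of a peak in every list and the width were measured values that chose the members, so neither is a finding. All positions are of human genome build hg19, and which genes or regulatory elements lie there was not analysed here.

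Accessibility was measured by ATAC-seq, in which a transposase inserts adapters into exposed DNA, in 22Rv1, a line of human prostate cancer cells. Unmodified (parental) 22Rv1 cells were used for 15 libraries, 3 in each of 5 groups, treated for 3 h with DMSO (0.1%), with 20 µM of the stereoprobe WX-02-23, with 20 µM of its stereoisomer WX-02-43, or with pladienolide B (PladB) at 10 nM or at 100 nM. The other 14 libraries came from engineered 22Rv1 cells, 2 in each of 7 groups. All engineered cells overexpressed Y36C-PHF5A, a variant of a spliceosome subunit, and carried a doxycycline (Dox)-inducible FOXA1, either the wild type (WT-FOXA1) or C258A-FOXA1, in which the cysteine bound by WX-02-23 is replaced by alanine. Both engineered lines received Dox with DMSO, with 20 µM WX-02-23 or with 100 nM PladB for 3 h, and the WT-FOXA1 line was also given DMSO without Dox. The controls of the engineered lines carry Y36C-PHF5A too, and the labels name no deletion of endogenous FOXA1. Whether replicates came from separate cultures is not stated in the labels, so p-values measure the spread between these libraries, which may be technical.

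FOXA1 is a pioneer transcription factor: it binds its sites on nucleosomal DNA, opens the chromatin around them and, in prostate cells, prepares enhancers for the androgen receptor. WX-02-23 is a covalent ligand of that FOXA1 cysteine and also of the splicing factor SF3B1, the protein that PladB inhibits, and Y36C-PHF5A blunts the effect of such ligands on splicing. An ATAC-seq peak is a stretch where cuts pile up above the local background, and its summit is the position with most fragments. Narrow peaks often mark a single nucleosome-free stretch, whereas wide ones, commonly seen at active promoters and clustered enhancers, hold several such stretches side by side with nucleosomes between or beside them.

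The peak lists held 62832 to 98193 peaks, after leaving out the mitochondrial chromosome. No source used here gives read totals, so depth was judged from the background level in reads per base that the fold values imply, which ranged from 0.546 to 1.502. The parental and the engineered lists carry the names of different processing folders, so batch and a difference of the engineered from the parental cells cannot be told apart. The covered width of a region in a library is the number of its bases that lie inside peaks of that library. Fewer reads can make peaks shorter, so depth is given beside the widths it moves with.

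Members made up 4.65% of the shared regions and 9.45% of the bases in them. Their merged width had a median of 1645.5 bp, with an interquartile range of 1563.75 to 1775 bp, and 118 members spanned 2000 bp or more. The other shared regions had a median merged width of 745 bp. The limit cut through a continuous slope of widths: 74 shared regions of 1490 to 1499 bp fell just below it and 60 members of 1500 to 1509 bp just above. These neighbours were alike, with a median covered width of 1163 bp below the limit and 1130 bp above it.

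**Figure D1:**
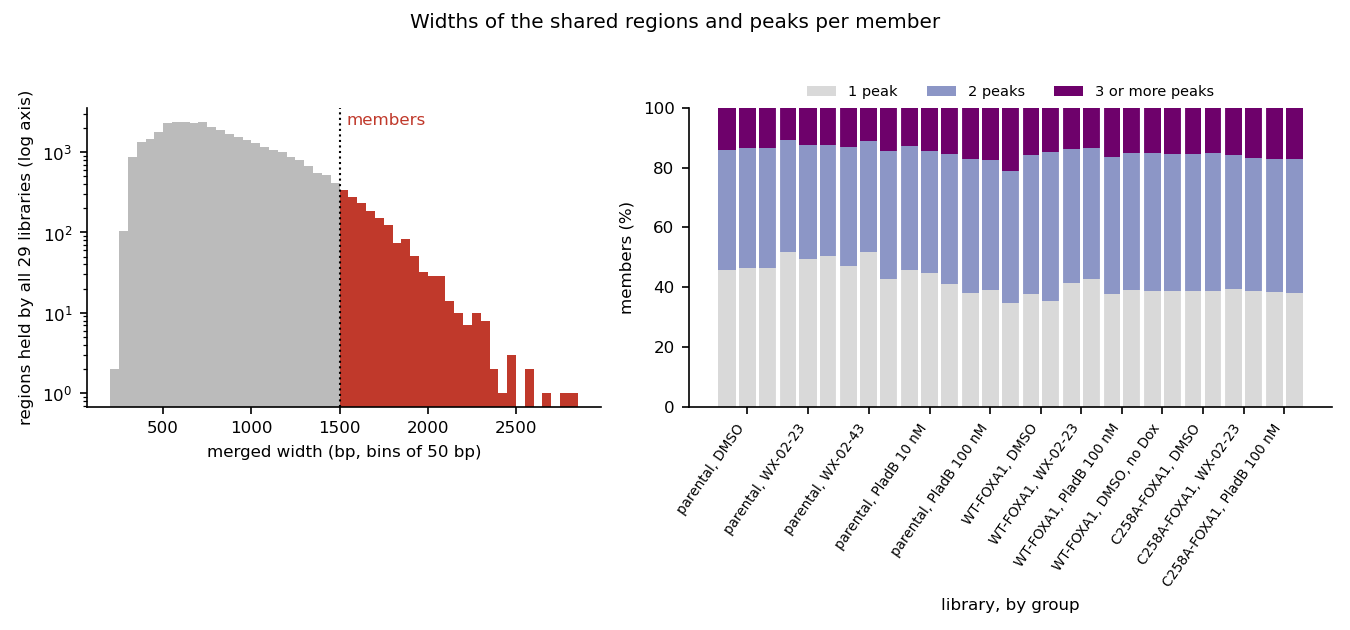
Left: number of regions held by all 29 libraries (log axis) by merged width in bins of 50 bp, with the 1668 members in red from 1500 bp upward. Right: percentage of members that held 1, 2, or 3 or more peaks in each library, 1 bar per library, grouped by cells and treatment. The share with 1 peak was between 34.8% and 51.9% in every library.

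The number of peaks in a member varied between libraries. A single peak was called in every library in 45 members, and 2 or more peaks in every library in 109. In the remaining 1514 members, 90.8% of them, 1 peak was called in some libraries and several in others. The median number of peaks over the 29 libraries was 1 in 641 members, 2 in 914, 3 in 108 and 4 or more in 5, and the most in any library was 6. Each deposited peak carries 1 summit, so these are also the numbers of summits. Among the other shared regions, 87.2% to 90.8% held a single peak in the parental libraries and 88.0% to 89.5% in the engineered ones. The larger number of peaks in a member follows in part from its width, which chose it.

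Neighbouring summits inside a member lay a median of 684 bp apart, with an interquartile range of 492 to 881 bp over 36084 pairs from all libraries. The median was similar in every library, from 636 to 728 bp. The strongest summit, that of the peak with the highest fold, lay in the middle 60% of the member in 85.7% of all library by member pairs, and in the outer 10% at either end in 1.51%. In 725 members, 43.5% of them, the strongest summits of all 29 libraries fell within 150 bp of each other. In 508 members they were spread over 500 bp or more, so different libraries had their highest point in different parts of the same region. The spread had a median of 201.5 bp in the members and 128 bp in the other shared regions.

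The bases that all 29 libraries covered made up less than the merged region. Summed over a member they had a median of 683 bp, or 40.5% of the member's width, and reached from 0 to 1832 bp. Bases covered by at least 15 libraries amounted to a median of 1245.5 bp, 74.2% of the width. The bases common to all libraries formed 1 stretch in 727 members, 2 in 682, 3 in 203, 4 in 35 and 5 in 3. In 18 members no base was covered by all libraries, although each library had a peak there.

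**Figure D2:**
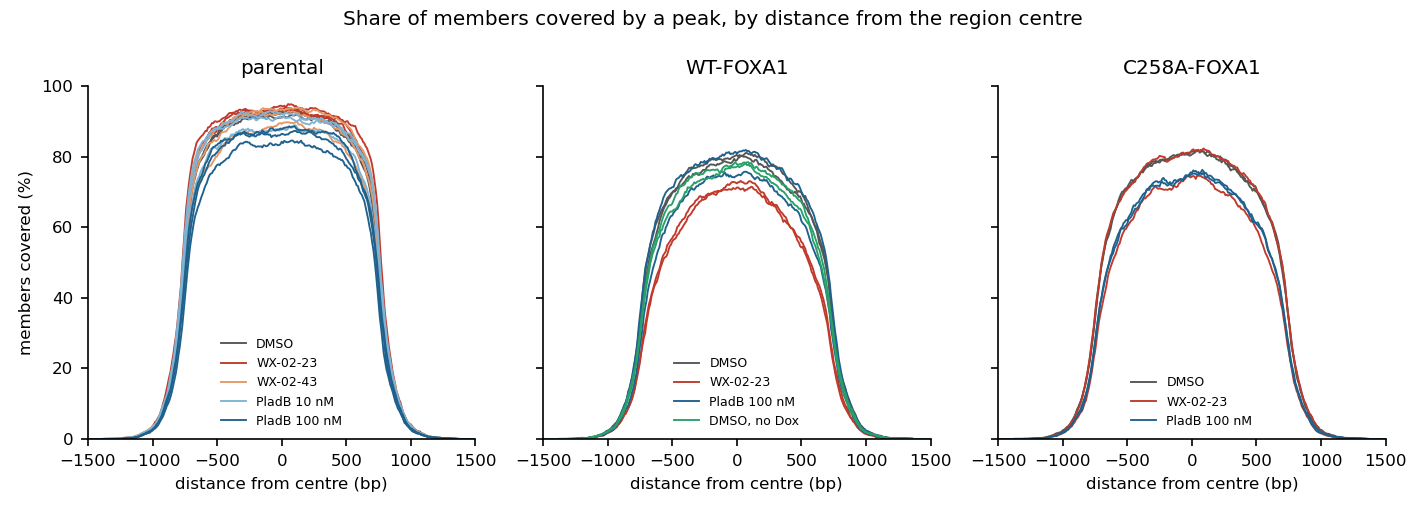
Percentage of the 1668 members covered by a peak (y axis) at each distance from the centre of the member (x axis, bp), with 1 line per library, coloured by treatment, for parental, WT-FOXA1 and C258A-FOXA1 cells. At the centre, parental libraries covered 84.2% to 94.4% of members and engineered libraries 71.2% to 81.8%.

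The rank of the members depended on the value used to rank them. Fold enrichment over the local background and the −log10 p-value are the authors' own values for each peak, and they were read here as the percentile of a member's strongest peak within its list. A member held more peaks on average than the other shared regions, so its strongest was picked from more of them. By p-value, members stood high in every list, with a median percentile of 88.2 to 91.6, whereas the other shared regions had medians of 68.3 to 80.4. By fold, the members' median percentile was 65.2 to 69.2 in the parental lists, below the 75.6 to 78.8 of the other shared regions in the same lists. In the engineered lists it was 73.2 to 80.6, against 68.2 to 78.0 for the other shared regions. Accordingly, 1.62% to 5.58% of members were among the top 10% of peaks by fold in the parental lists, and 11.3% to 20.9% in the engineered lists. In the parental lists the members thus stood above the other shared regions by p-value and below them by fold.

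The widest member was chr16:89786594-89789394, with 2801 bp. Its covered width ran from 1647 to 2733 bp in parental libraries, in 1 to 5 peaks, and from 1134 to 1793 bp in engineered libraries. Its strongest peaks ranked low by fold, at a mean percentile of 16.0, and its strongest summits were spread over 1867 bp. The second widest, chr1:145395249-145398004 with 2756 bp, held 3 to 6 peaks in every library and was also the member with the most summits on average. It stood at a mean fold percentile of 3.43, while its mean p-value percentile was 69.2. In chr5:14142925-14145589, the next in width at 2665 bp, all libraries shared 464 bp.

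The remaining 7 of the 10 widest members were chr1:244997124-244999689 (2566 bp), chr12:46383486-46386049 (2564 bp), chr3:32279575-32282052 (2478 bp), chr4:83350020-83352495 (2476 bp), chr12:7070361-7072824 (2464 bp), chr12:122500687-122503103 (2417 bp) and chr19:48901594-48903977 (2384 bp). The 2564 bp member on chromosome 12 kept its strongest summit within 45 bp in all 29 libraries and stood at a mean p-value percentile of 94.2. The 2464 bp member on the same chromosome had 1680 bp covered by every library, summed over 4 separate stretches. Besides the 2756 bp member on chromosome 1, the members with the most summits were chr19:45594258-45596574 and a 2268 bp region on chromosome 8, each with a median of 4 peaks.

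The 5 members that ranked highest by fold were chr5:74806532-74808058, chr12:118573255-118574777, chr19:11848773-11850287, chr7:42971452-42973120 and chr16:8890987-8892499, with mean fold percentiles of 97.5, 97.2, 96.2, 95.7 and 95.4. Their widths were 1513 to 1669 bp, and in each the strongest summits of all libraries fell within 117 bp. At the other end, besides the 2756 bp member on chromosome 1, stood chr5:180644022-180645631, chr2:10152565-10154459, chr22:50963292-50965183 and chr9:92217956-92219491, with mean fold percentiles of 2.14 to 4.29. The chromosome 2 member of this group was covered over 1344 bp by every library and had a mean p-value percentile of 80.7.

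Members and other shared regions were compared for the distance to the nearest shared region. From a member to the nearest other shared region the median distance was 20.0 kb, and 27.9% had one within 10 kb. For the other shared regions the median was 16.6 kb, with 35.9% within 10 kb. Within 100 kb the order was the other way, with 93.5% of members and 91.7% of the other shared regions. Wide regions absorb close neighbours by the merging rule, so these distances are a description. The distance from one member to the next on the chromosome had a median of 743 kb. Only 17 of 1644 such steps were under 10 kb and 211 under 100 kb, so most steps were longer than that.

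Per megabase, members were densest on chromosomes 19, 17 and 12, with 1.23, 1.05 and 0.964. This order followed that of the shared regions in general for chromosomes 19 and 17, which held 33.9 and 22.0 shared regions per megabase. Per 100 shared regions the order was different. Chromosome 12 then ranked highest with 6.87 members, followed by chromosome 4 with 5.86, while chromosome 19 had 3.64, chromosome 21 had 2.80 and the X chromosome 2.00, against 4.65 over all chromosomes. The gene-dense chromosome 19 therefore held many shared regions, of which a smaller part was wide. Chromosome 12 held 129 members, and 3 of the 10 widest regions lay on it.

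In windows of 1 Mb, 656 windows held a single member, 271 held 2 and 64 held 3. The densest window was the first megabase of chromosome 11, with 8 members among 44 shared regions. The windows from 176 to 177 Mb of chromosome 5 and from 53 to 54 Mb of chromosome 12 came next with 6 members each, of 38 and 44 shared regions. Another 3 windows, on chromosomes 6, 11 and 17, also held 6.

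The covered width of a member was then compared between treatments. In parental DMSO libraries the median covered width over members was 1400, 1401 and 1380 bp. It was 1466, 1427 and 1428 bp with WX-02-23, so all 3 libraries lay above all 3 DMSO libraries. With WX-02-43 it was 1386, 1427.5 and 1320 bp and with 10 nM PladB 1418, 1399.5 and 1337 bp, and both groups overlapped DMSO. With 100 nM PladB it was 1325.5, 1301 and 1238 bp, below all other parental libraries except that the highest of these values was above the 1320 bp of 1 WX-02-43 library. Background was lower in these than in the other parental libraries, at 0.662 to 0.734 reads per base against 0.881 to 1.002 in DMSO, and the part of depth in this was not tested.

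The peaks themselves were more often joined or split along with this. A member held a single peak in 45.6%, 46.3% and 46.5% of cases in the DMSO libraries, in 49.6% to 51.9% with WX-02-23 and in 34.8% to 39.0% with 100 nM PladB. The mean length of the gaps between the peaks of a member was 95.3 to 103 bp with DMSO, 80.7 to 89.3 bp with WX-02-23 and 132 to 161 bp with 100 nM PladB. The background was 0.923 to 1.121 reads per base in the WX-02-23 libraries.

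In the WT-FOXA1 line the median covered width was 1130.5 and 1096 bp with DMSO and Dox, 924 and 915 bp with WX-02-23, 1009 and 1132 bp with PladB, and 1070 and 1044 bp without Dox. The WX-02-23 libraries were the narrowest of all 29. Their background was 0.903 and 1.256 reads per base, and that of the DMSO libraries 0.869 and 0.844. In the C258A-FOXA1 line the values were 1134 and 1139 bp with DMSO, 970 and 1151 bp with WX-02-23, and 998 and 1005 bp with PladB. The WX-02-23 libraries of this line therefore disagreed, and the narrower of them was also the shallower, at 0.648 against 0.917 reads per base. The 2 PladB libraries had the lowest backgrounds of all, 0.546 and 0.587.

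**Figure D3:**
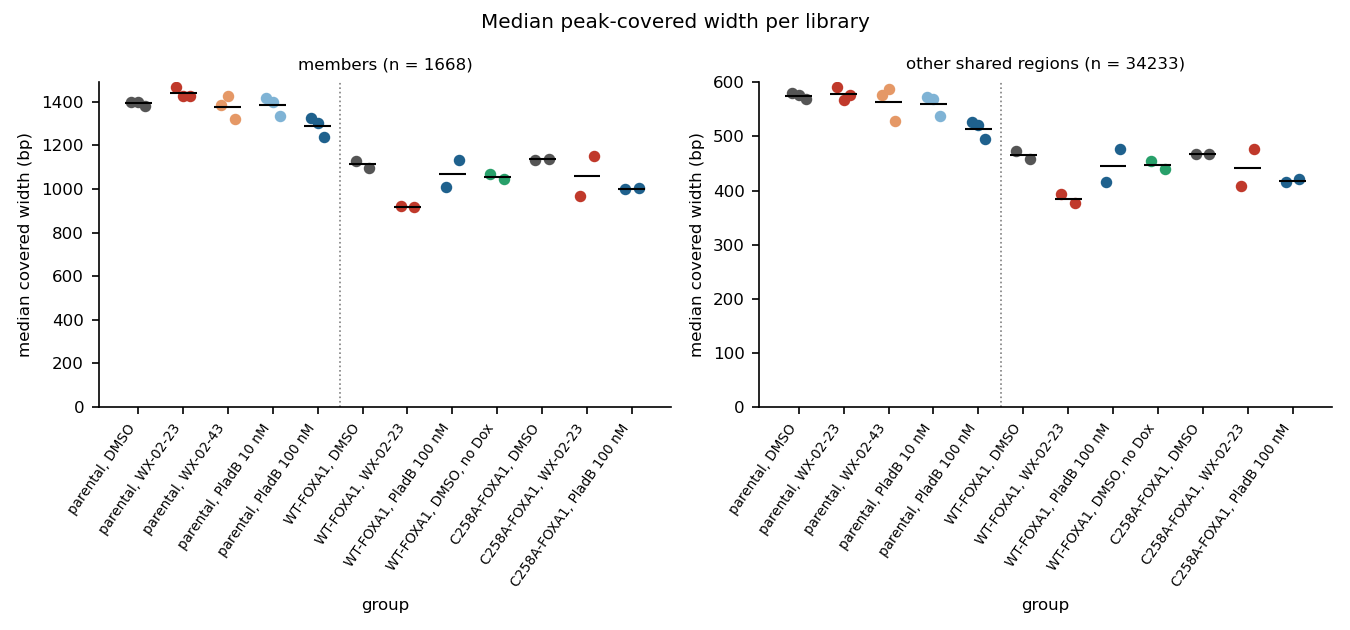
Median covered width (bp, y axis from 0) in each library, over the 1668 members on the left and the 34233 other shared regions on the right. Points are libraries, horizontal lines are group means, and the dotted line separates parental from engineered cells. The order of the groups was similar in both panels, with WX-02-23 in WT-FOXA1 cells lowest in each.

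Changes of single members were tested with limma on the log2 covered width over all 35901 shared regions, separately in parental and engineered cells, with Benjamini-Hochberg adjustment over all regions and a threshold of 0.05. Against DMSO, WX-02-23 changed the width of 7 members in parental cells: 4 became wider and 3 narrower. Width also chose the members: merged without the libraries of the wider of both groups, 1 of the 4 and 2 of the 3 would not reach 1500 bp, and these are described below with no test. Of all shared regions, 0.164% passed this test, 0.0863% as wider and 0.078% as narrower. The median change over members was 0.036 on the log2 scale, and 64.7% of members lay above 0. The median of all shared regions was 0.016. The SD of the libraries' medians was 0.018, so the shift over members was larger than that spread, and small.

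The largest change under WX-02-23 was a loss at chr11:69468772-69471056, a member of 2285 bp called member A below. Its covered width was 1961, 2021 and 1985 bp in the DMSO libraries and 1062, 1033 and 1078 bp with WX-02-23, a log2 change of -0.91 (SE 0.060, 3 against 3 libraries, limma adjusted p = 6.36e-05). The groups did not come near each other. With the stereoisomer WX-02-43 it remained at 2163, 2057 and 2127 bp. The loss lay on the right: peaks ended 2226 to 2285 bp from the left edge of the member with DMSO and 1311 to 1351 bp with WX-02-23, while the left boundary stayed at 80 to 147 bp in both groups. The strongest summit was 768 to 820 bp from the left edge with DMSO and 853 to 931 bp with WX-02-23. The fold of its peak was 3.80 to 4.13 with DMSO and 3.86 to 4.02 with WX-02-23, so the strongest peak did not weaken. Over all members the median fold was 9.01 to 9.10 in the DMSO libraries.

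With PladB the same side of member A was lost. With 10 nM it was covered over 1353, 1304 and 1143 bp (log2 change -0.65, SE 0.060, limma adjusted p = 0.00158) and with 100 nM over 1027, 1169 and 1077 bp (log2 change -0.87, SE 0.060, limma adjusted p = 0.000114). Peaks then ended 1310 to 1513 bp and 1296 to 1388 bp from the left edge. These comparisons and that of WX-02-23 share the 3 DMSO libraries.

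Member A was also compared in engineered cells. In the WT-FOXA1 line it was covered over 1843 and 1762 bp with DMSO and 1174 and 1052 bp with WX-02-23 (log2 change -0.70, SE 0.13, 2 against 2 libraries, limma adjusted p = 0.0283), and its right end again moved, from 1895 to 1959 bp to 1324 to 1351 bp. With library medians subtracted the change was -0.42 and did not pass (adjusted p = 0.0627). With PladB in the same line it was covered over 1453 and 1788 bp, and without Dox over 1863 and 1743 bp, and neither passed the test. In the C258A-FOXA1 line it measured 1680 and 1900 bp with DMSO, 1124 and 1420 bp with WX-02-23 and 1760 and 1650 bp with PladB. The WX-02-23 libraries of that line lay below its DMSO libraries, at a log2 change of -0.50 that did not pass (limma adjusted p = 0.45), and the difference between the 2 lines did not pass either (adjusted p = 0.81). Merged from the engineered lists alone, member A would span 2001 bp, while the other 17 of the 18 changed members described here would be under 1500 bp, among them member B with 1065 bp and member D with 427 bp. Merged without the parental DMSO libraries, member A would span 2274 bp.

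The largest gain under WX-02-23 was at chr11:10829256-10831269, a member of 2014 bp called member B. Merged without the parental WX-02-23 and PladB libraries it would span 1210 bp, so it is a member only through groups in which it was wide, and its changes are a description with no test. Its covered width was 1155, 1130 and 1205 bp with DMSO and 1817, 1799 and 1928 bp with WX-02-23 (log2 change 0.67, SE 0.079, 3 against 3 libraries). With WX-02-43 it was 1083, 1259 and 1185 bp, values that overlapped those of DMSO. With 10 nM PladB it was 1664, 1721 and 1664 bp, above every DMSO library. With 100 nM PladB it was 1665, 1771 and 1378 bp (log2 change 0.46, SE 0.079).

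The part gained in member B was its left side. In DMSO and WX-02-43 libraries the main peak began 794 to 854 bp from the left edge, with at most a short separate peak before it. With WX-02-23 the first peak began 9 to 54 bp from the left edge. A gap was left from 538 to 649 bp in replicate 1 and from 660 to 737 bp in replicate 3. In all 14 engineered libraries the member held 1 peak of 916 to 1039 bp, starting 826 to 885 bp from the left edge, whatever the treatment. The widening seen in parental cells was therefore not found with WX-02-23 or PladB in either line that overexpresses Y36C-PHF5A. A direct test across parental and engineered cells was not run, since batch and a difference of the cells cannot be told apart.

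The other 2 members that lost width under WX-02-23 in parental cells were chr14:105939616-105941241 and chr9:91148924-91150607. Merged without the DMSO libraries they would span 1163 and 1337 bp, so they too are described with no test. The first, of 1626 bp, went from 1423 ± 112 bp (SD, n = 3) with DMSO to 1017 ± 18.7 bp, its right end moving from 1583 to 1626 bp to 1115 to 1141 bp from the left edge. PladB gave 1012 ± 58.6 bp at 10 nM and 969 to 1016 bp at 100 nM. In engineered cells the peaks ended at 1113 to 1163 bp in every library, controls included, where treated parental cells also ended. The chromosome 9 member, member C in the plot of peaks, went from 1267 ± 194 bp with DMSO to 773 ± 24.3 bp with WX-02-23 by losing the 1 or 2 separate peaks on its left. With 100 nM PladB it measured 714 to 795 bp and with 10 nM PladB 764 to 800 bp. With WX-02-43 it measured 895, 1243 and 1041 bp (log2 change -0.26), values that overlapped those of DMSO. Merged from the parental lists alone it would span 849 bp, and from the engineered lists alone 1311 bp.

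The other 3 that gained width under WX-02-23 rose by less. One, chr14:45721999-45723530, measured 1083 ± 80.8 bp with DMSO and 1420 ± 68.7 bp with WX-02-23 (SD, n = 3), but would span 1425 bp without the WX-02-23 libraries and is given with no test. The others were chr2:190648173-190649727, from 1259 ± 31.1 to 1511 ± 48.8 bp (limma adjusted p = 0.0257), and chr17:74732337-74734205, from 1504 ± 66.4 to 1825 ± 20.3 bp (limma adjusted p = 0.0443). The chromosome 2 member would span 1535 bp without the WX-02-23 libraries and 1500 bp without the DMSO libraries too, at the limit itself. Neither it nor the chromosome 17 member was merged without the WX-02-23 and PladB libraries together, as member B was. On chromosome 17 the 2 peaks called in each DMSO library were joined into 1 in each WX-02-23 library. On chromosome 2 the left end moved from at least 238 bp to at most 14 bp. When each library's median width was first subtracted, these last 2 no longer passed (adjusted p of 0.131 and 0.0773), whereas member A did. The chromosome 17 call held in 0 of the 6 fits that left out 1 library. With each of the 6 WX-02-23 and DMSO libraries left out in turn, the count of 7 became 2 (without DMSO replicate 1) to 5 (without WX-02-23 replicate 3), and member A passed in all 6 of these fits.

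**Figure D4:**
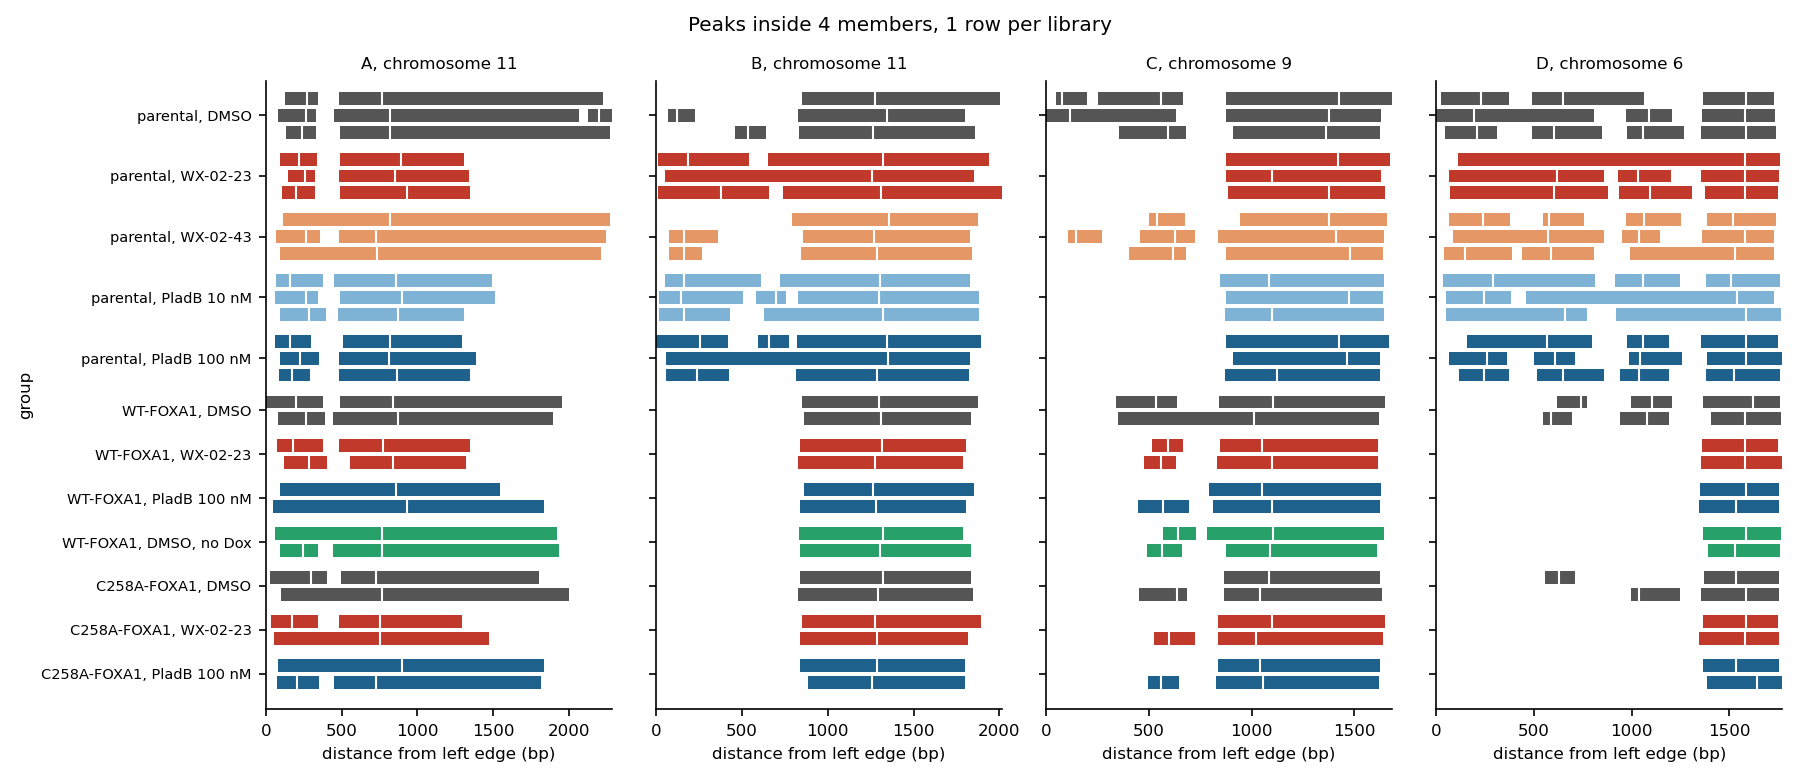
Peaks (bars) and their summits (white lines) inside 4 members in each of the 29 libraries, 1 row per library, by distance from the left edge of the member (x axis, bp), coloured by treatment. Members A and B lie on chromosome 11, member C on chromosome 9 and member D on chromosome 6. In member A the right side was shorter with WX-02-23 than with DMSO in parental, WT-FOXA1 and C258A-FOXA1 cells, and with PladB in parental cells. In member B more of the left side was covered with WX-02-23 and PladB in parental cells, mostly with gaps, but not in engineered cells.

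The stereoisomers, given at the same dose for the same time, were compared directly in parental cells as the only pair of related compounds. WX-02-23 and WX-02-43 differed in the width of 5 members, 4 wider with WX-02-23 and 1 narrower. Among all shared regions 0.167% differed, 0.114% wider and 0.0529% narrower. Member A was narrower with WX-02-23, at a log2 difference of -1.0 with a 95% interval of -1.13 to -0.87 (limma adjusted p = 2.07e-05). Member B, with no test as above, was wider by 0.65.

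The other 3 were all wider with WX-02-23. None of them was merged without the WX-02-23 and PladB libraries together, as member B was. At chr2:187350417-187351993 the covered width was 1468 ± 57.2 bp with WX-02-23 and 1035 ± 90.3 bp with WX-02-43 (limma adjusted p = 0.0243), and the DMSO libraries measured 1022 to 1167 bp. At chr1:160000639-160002235 it was 1540 ± 37.5 against 1099 ± 179 bp (limma adjusted p = 0.0411), but here the DMSO libraries, at 1284 to 1370 bp, stood between the 2 isomers. At chr2:190648173-190649727 it was 1511 ± 48.8 against 1233 ± 47.5 bp (limma adjusted p = 0.0162). With library medians subtracted, chr2:187350417-187351993 and chr2:190648173-190649727 did not pass (adjusted p of 0.0761 and 0.143). The calls at chr2:187350417-187351993 and chr1:160000639-160002235 held in 1 of 6 fits that left out 1 library. For the rest, the 95% interval of the difference lay within 0.5 on either side of 0 on the log2 scale in 1444 of the 1668 members, and the median half-width of the interval was 0.19. A member that did not pass is thus not shown to respond alike to both isomers.

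WX-02-43 itself changed no member against DMSO in limma's test, where 84 members had an unadjusted p under 0.05, 5.04% against 4.92% of all shared regions. Over all shared regions 0.00557% passed. The median change over members was -0.015, and the interval lay within 0.5 of 0 in 1520 members.

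PladB at 10 nM made 2 members narrower and none wider: member A and chr14:105939616-105941241, described above, the latter with no test. Over all shared regions 0.0279% passed, 0.0251% as narrower. The median change over members was -0.010. At 100 nM, 42 members were narrower and 2 wider. Of the 42, 5 would not reach 1500 bp without the DMSO libraries. Over all shared regions 1.23% passed, 1.22% as narrower and 0.0111% as wider. The median change was -0.107 over the members and -0.106 over all shared regions.

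The narrowing with 100 nM PladB was thus of the same size in members and in all shared regions. Subtracting each library's median log2 width moved the median of all shared regions by 0.163. On that scale 5 members were wider and 4 narrower with 100 nM PladB. The median change was then 0.056 over the members and also 0.056 over all shared regions. Member A was called on both scales. The only other member called wider was chr15:74934562-74936266, from 1369 ± 50.5 to 1565 ± 46.5 bp (limma adjusted p = 0.0468), a call that held in 0 of 6 fits that left out 1 library.

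The largest losses at 100 nM PladB were at chr1:41915189-41916946, from 1271 ± 87.6 to 614 ± 162 bp, at chr22:51038275-51040081, from 1149 ± 31.1 to 559 ± 48.2 bp, and at chr5:18745096-18746715, from 1251 ± 153 to 609 ± 67.9 bp (limma adjusted p of 0.036 for chromosome 1 and 0.0363 for chromosome 5, 3 libraries a group). The chromosome 22 member would span 1041 bp without the DMSO libraries and has no test. At each of them cover beside the strongest peak was absent in some PladB libraries, while the strongest summit stayed within the same part of the member. Neither of the tested members passed once library medians were subtracted. Without DMSO replicate 2 the number of members called at 100 nM fell from 44 to 8, and without PladB 100 nM replicate 1 it was 59.

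In the WT-FOXA1 line with Dox, WX-02-23 made 55 members narrower and none wider. Over all shared regions 2.33% passed, 2.31% as narrower. The median change was -0.238 over members and -0.201 over all shared regions, and 6.35% of members lay above 0. Subtracting the library medians moved the median of all shared regions by 0.276. Then 1 member was wider and 3 narrower, with a median of 0.039 over members and 0.076 over all shared regions. Without the first DMSO library of this line no member passed, and without the first WX-02-23 library 97 did.

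The largest of these losses took away most of the covered width. At chr3:48470297-48472021 the covered width fell from 893 to 1005 bp with DMSO to 159 to 262 bp (log2 change -2.21, SE 0.39, limma adjusted p = 0.0276), at chr9:127020144-127021777 from 803 to 1182 bp to 243 to 336 bp (log2 change -1.77, SE 0.34, limma adjusted p = 0.0355), and at chr12:24714778-24716867 from 974 to 1048 bp to 252 to 350 bp (log2 change -1.77, SE 0.30, limma adjusted p = 0.0227). With library medians subtracted the chromosome 3 and 9 members did not pass (adjusted p of 0.0591 and 0.0963), and the chromosome 12 member did (adjusted p = 0.0447). The chromosome 12 member held 4 peaks in each DMSO library of this line and 1 with WX-02-23. With WX-02-23 in the C258A-FOXA1 line it held 4 peaks, covering 953 to 1019 bp against 1017 to 1039 bp with DMSO. Without Dox, the WT-FOXA1 line covered 567 to 604 bp of it. The chromosome 3 member, by contrast, was short with WX-02-23 in C258A-FOXA1 cells too, at 293 to 323 bp against 796 to 838 bp.

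The difference between the 2 lines in their response to WX-02-23 was tested itself, as an interaction in limma. No member passed, and 157 had an unadjusted p under 0.05, 9.41% of members against 8.54% of all shared regions. Over all shared regions 0.0111% passed. In the C258A-FOXA1 line alone no member changed with WX-02-23, with 144 at an unadjusted p under 0.05, 8.63% of members against 6.62% of all shared regions, and 0.00279% of all regions called, although without the second WX-02-23 library of that line 11 members passed. The median change there was -0.094, with an SD between libraries of 0.12.

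With PladB at 100 nM no member passed limma's test in either engineered line. On simulated data of the engineered layout this test recovered 32% of log2 changes of 1. In the WT-FOXA1 line 68 members had an unadjusted p under 0.05, 4.08% against 3.91% of all shared regions, none of the shared regions passed (0%), and the median change was -0.037. In the C258A-FOXA1 line 242 members had an unadjusted p under 0.05, 14.5% against 8.89% of all shared regions, 0.0167% of all shared regions passed, and the median change was -0.156, or 0.0015 after the library medians were subtracted, a step that moved the median of all regions by 0.157.

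Induction of WT-FOXA1 made 2 members wider and none narrower, comparing DMSO with and without Dox. Of all shared regions, 0.22% passed, 0.217% as wider. The clearer of the 2 was chr6:19837812-19839581, member D in the plot of peaks, which was covered over 366 and 399 bp without Dox and over 761 and 763 bp with Dox (log2 change 1.0, SE 0.11, 2 against 2 libraries, limma adjusted p = 0.0087). Without Dox it held a single peak at its right end, and with Dox 2 further peaks were called to the left of it. These had folds of 3.26 to 3.84, against 8.82 and 8.85 for the peak at the right end. The lists without Dox held 69814 and 67195 peaks, and those with Dox 88140 and 85009. Background was 0.809 and 0.723 reads per base without Dox and 0.869 and 0.844 with it. The part of depth in this was not tested, and with equal list lengths no member was called.

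In the same line WX-02-23 with Dox gave 389 to 414 bp in member D, chr6:19837812-19839581 (log2 change -0.93, SE 0.11, limma adjusted p = 0.00762), so the peaks present with Dox and DMSO were absent. With library medians subtracted the change was -0.65 and did not pass (adjusted p = 0.0815). With PladB and Dox it measured 402 to 411 bp, a change of -0.91 that did not pass over all regions (limma adjusted p = 0.444). Both comparisons share the DMSO libraries with Dox, in which member D had been picked as widened. That choice favours a fall. In the C258A-FOXA1 line it was 535 to 650 bp with DMSO, 383 to 407 bp with WX-02-23 and 383 to 387 bp with PladB, with no call in either comparison. Parental cells covered 1286 to 1419 bp of member D with DMSO and 1471 to 1651 bp with WX-02-23, all peaks being present. The second member that widened with Dox was chr6:100061138-100062790, from 282 to 359 bp to 563 to 578 bp (limma adjusted p = 0.0377). It did not pass with library medians subtracted (adjusted p = 0.111) and passed in 1 of 4 fits that left out 1 library, as did member D. The second member measured 196 to 215 bp with WX-02-23 and Dox in the same line, a comparison that again shares the DMSO libraries with Dox.

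Members called in one kind of cell were looked up in the other, as a description. Some had passed the width limit only through the group in which they were wider. These were 2 of the 3 and 1 of the 4 members for WX-02-23, and 5 of the 42 for PladB. Member B, also among the 4, passed it only through the WX-02-23 and PladB groups together. The 3 members that narrowed with WX-02-23 in parental cells also had a negative change in the WT-FOXA1 line, where 93.6% of all members did. None of the 4 that widened in parental cells had a positive change there, against 6.35% of all members. Of the 55 members that narrowed in the WT-FOXA1 line, 23 had a negative change in parental cells, where 35.3% of all members did, and their median change in parental cells was 0.036. Of the same 55, 42 had a negative change in the C258A-FOXA1 line, where 76.5% of all members did. Of the 42 members narrower with 100 nM PladB in parental cells, 28 had a negative change in the WT-FOXA1 line with PladB and 36 in the C258A-FOXA1 line, where 62.7% and 88.9% of all members did.

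Median changes of the members lay close to those of the next narrower shared regions. With 100 nM PladB in parental cells the median change was -0.103 in shared regions of 1250 to 1499 bp and -0.107 in the members. With WX-02-23 in the WT-FOXA1 line the medians went from -0.184 in regions under 500 bp to -0.228 at 1250 to 1499 bp and -0.238 in the members. With PladB in the C258A-FOXA1 line they went from -0.076 to -0.140 and -0.156. In parental cells with WX-02-23 they lay between 0.008 and 0.036 in all 6 width classes.

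**Figure D5:**
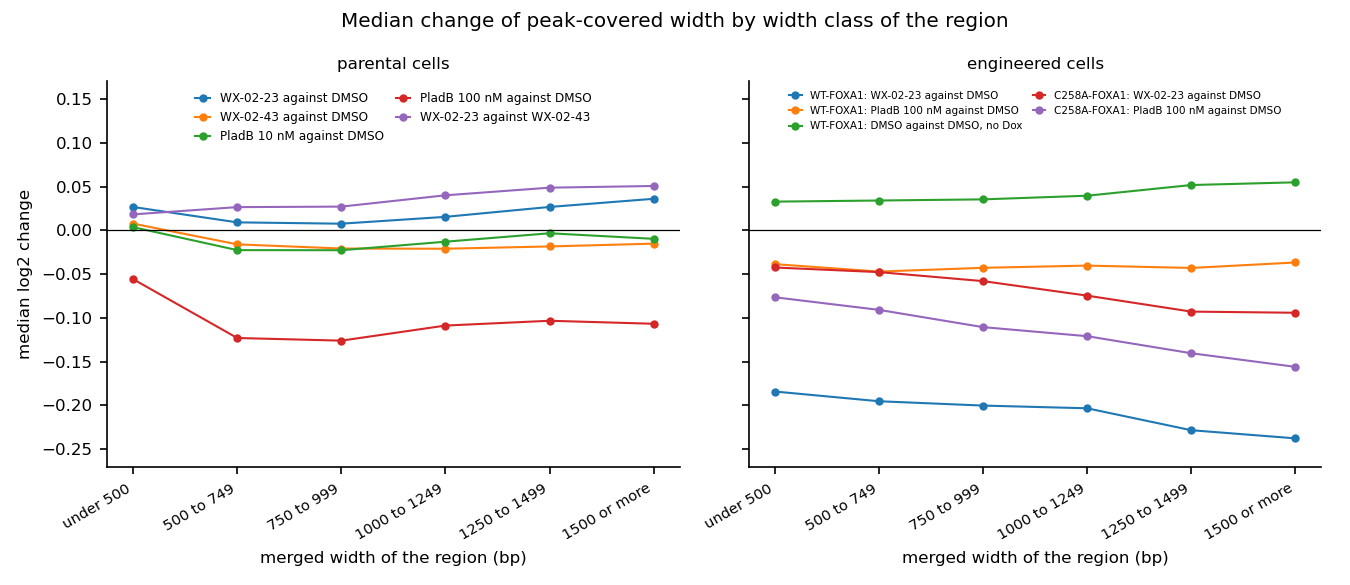
Median log2 change of covered width (y axis) by merged width of the region (x axis, 6 classes in bp, members at the right), for 5 comparisons in parental cells and 5 in engineered cells, as deposited. Members lay close to the class of 1250 to 1499 bp in each comparison. With library medians subtracted, the members' medians for 100 nM PladB in parental cells and for WX-02-23 in the WT-FOXA1 line were 0.056 and 0.039. Those of all shared regions were 0.056 and 0.076, so the members did not lie above them.

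The position of the strongest summit was compared last, by a rule chosen after the data had been seen: the group medians differed by at least 200 bp and the groups did not overlap. In parental cells this held for 42 members, 2.52%, with WX-02-23 against DMSO and for 26, 1.56%, with WX-02-43, where 0.855% and 0.624% of all shared regions met it. It held for 34 members with 10 nM PladB, 46 with 100 nM PladB and 31 between the isomers, beside 0.657%, 0.833% and 0.752% of all shared regions. Since wider regions leave more room for a summit to move, these shares are not comparable with those of narrower regions. Of the 42, the WT-FOXA1 line with WX-02-23 also showed a difference of at least 200 bp between group medians in the same direction in 10 and in the opposite direction in 5, and the C258A-FOXA1 line in 10 and 3.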

How the data were processed

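Per the labels' protocols, a commercial kit was used to make ATAC-seq libraries of 22Rv1 cells. The submitters' processing notes name Bowtie2, MACS2 and build hg19. Not given in the sources used here: options, versions, duplicate removal and a shift of reads for the transposase. The authors deposited 1 peak list per library, so replicates were not pooled. Each deposited list gives per peak a score, a fold enrichment (a ratio to the local background), the −log10 p-value, the −log10 q-value and the summit. The score was not used, and the authors' p-values served only to rank peaks within a list. Their fold values ranked peaks, gave the background level, and are quoted for members A and D and as a median over members. The lowest −log10 q was about 2 (a q-value of 0.01), and no peak was narrower than 150 bp.

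All peaks but the mitochondrial ones were merged. A region counted as held by a library with at least 1 peak inside it. Widths were the log2 of covered bases, positive in every library, fitted with limma (version 3.58.1, trend on) in R 4.3.3, over 5 parental groups or 7 engineered groups, with Benjamini-Hochberg adjustment over 35901 regions. Python 3.11.15, numpy 2.4.6, pandas 2.3.3 and matplotlib 3.10.9 were used otherwise. The fit was tested on simulated data with 200 changed regions, drawn from all shared regions, and the spread of the real regions. The changes were put into WX-02-23 against DMSO, in parental cells and in the WT-FOXA1 line. No shift of whole libraries was simulated, and recovery among members alone was not measured. Of log2 changes of 0.5 and 1, 45% and 75% were recovered in the parental layout. In the engineered layout 9% and 32% were recovered. A comparison with no call is therefore not shown to leave widths unchanged. After the calls were seen, each called member was also merged again without the libraries of the wider group, and those under 1500 bp without them are described with no test. Members A to D were further merged without the parental WX-02-23 and PladB libraries together, which left member B at 1210 bp and without a test. This second merge was not run for the other called members, so their p-values lack that check. Depth is known only as the background that steps of 1 read in the fold values imply.

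Groups and replicate numbers came from the labels. Same-numbered libraries did not deviate together: no correlation of deviations from the group means passed 0.1 (-0.016 to 0.095 in parental, -0.035 to 0.072 in engineered cells), so the numbers were not taken as pairs. Regions named by position were the 10 widest, the 5 highest and 5 lowest by mean fold percentile, the 3 with most summits, the 3 densest windows of 1 Mb, and per comparison up to 3 called rises and 3 called falls with groups that did not overlap. The rise at chr2:190648173-190649727, outside that rule for parental WX-02-23 against DMSO, and the summit rule were chosen after values were seen. The members and lists were chosen with earlier results of these data known. The alternatives were centred widths, first to last peak edge (span), equal list lengths, the replicate number as a block, members chosen by the lists of the other cells, other merging rules and leaving out each library. Genes, markers and sequence motifs at these positions were planned and not analysed here.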

Additional observations from a re-analysis of the deposited data

Results flagged for a closer look

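The results in this paragraph moved one way in every library of one kind of cell and the opposite way in every library of another, relative to the mean of that cell's own DMSO libraries, on the log2 scale of covered width. None of these differences was tested between parental and engineered cells, whose lists carry the names of different processing folders. Groups of 2 or 3 libraries were too small for a test of single outlying libraries. With WX-02-23 the libraries' median log2 width over members changed by 0.05 in parental cells and -0.28 in the WT-FOXA1 line, a difference of 0.32. This is a change of library medians, whereas the 0.036 and -0.238 given above are medians of the members' changes. Member B, chr11:10829256-10831269, differed by 0.72 between parental and WT-FOXA1 cells with WX-02-23, by 0.49 between the same cells with 100 nM PladB, and by 0.56 between parental and C258A-FOXA1 cells with 100 nM PladB. At chr14:45721999-45723530 the WX-02-23 changes differed by 0.75 between parental and WT-FOXA1 cells and by -0.41 between the WT-FOXA1 and C258A-FOXA1 lines, where limma's test of the difference gave an adjusted p of 0.609 (2 libraries a group). At chr15:74934562-74936266 the WX-02-23 change was 1.05 higher in parental than in WT-FOXA1 cells and 0.34 higher than in C258A-FOXA1 cells, and the 100 nM PladB change was 0.44 higher in parental than in C258A-FOXA1 cells. Member D, chr6:19837812-19839581, had a WX-02-23 change that was 1.15 higher in parental than in WT-FOXA1 cells and 0.81 higher than in C258A-FOXA1 cells. At chr2:190648173-190649727 the WX-02-23 change was 0.31 higher in parental than in C258A-FOXA1 cells.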

How the results depend on the processing

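The number of members was 1668 and stayed within 1591 to 1672 with each library left out. From the engineered lists alone 382 members would qualify, and from the parental lists alone 1537. The number was 756 when peaks had to cover at least 50% of a region in every library. Medians of members chosen by the lists of the other cells moved by less than the spread between libraries in all 10 comparisons. With library medians subtracted, the called members became 4 for parental WX-02-23, 9 for PladB 100 nM and 4 for WX-02-23 in the WT-FOXA1 line, and the medians became 0.030 (PladB 10 nM), 0.056 (PladB 100 nM, reversed), 0.039 (WX-02-23 in WT-FOXA1, reversed), -0.0062 (Dox) and 0.0015 (PladB in C258A-FOXA1). The reversed medians did not lie above those of all shared regions on that scale, 0.056 and 0.076. With the span in place of covered bases, the counts became 1 (WX-02-43), 4 (PladB 10 nM), 10 (PladB 100 nM), 11 (between isomers), 5 (Dox), 1 (WX-02-23 in C258A-FOXA1) and 6 (PladB in C258A-FOXA1), and the medians 0.016 (parental WX-02-23), -0.042 (PladB 100 nM), -0.137 (WX-02-23 in WT-FOXA1), 0.025 (Dox) and -0.074 (PladB in C258A-FOXA1). With equal list lengths, the counts became 21 (PladB 100 nM), 31 (WX-02-23 in WT-FOXA1) and 0 (Dox), and the medians -0.181 (WX-02-23 in WT-FOXA1), 0.025 (Dox) and -0.129 (PladB in C258A-FOXA1). With the replicate block, a pairing by number that the data did not bear out, the count was 4 for parental WX-02-23 and 1 for Dox, and no other count of members moved by over 1.5 times. The cause of these changes was not tested.

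With 1 library left out, the counts ranged over 2 to 5 (parental WX-02-23), 1 to 3 (PladB 10 nM), 8 to 59 (PladB 100 nM), 2 to 7 (between isomers), 0 to 97 (WX-02-23 in WT-FOXA1), 0 to 3 (Dox), 0 to 11 (WX-02-23 in C258A-FOXA1) and 0 to 1 (difference between the lines). The count stayed 0 for WX-02-43 and for PladB in both engineered lines. The medians ranged over -0.254 to -0.213 (WX-02-23 in WT-FOXA1) and -0.159 to -0.146 (PladB in C258A-FOXA1), and in the other comparisons every such median moved by less than the spread between libraries. A lone library of a group of 2 was assumed to vary like the other groups. Over all refits of the named changes, 100 still passed the threshold and 108 missed it, and none changed direction. Member A kept its call for parental WX-02-23 in all refits. Lists without read counts limit every width to what passed the peak caller's threshold at that library's depth.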

Other observations

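Besides the members, 32 merged regions reached 1500 bp without a peak in every library. Of these, 13 were held by 28 libraries and 5 by 27. Most of these were missing from engineered rather than parental libraries. At the other extreme, 6 wide regions were held by no parental library, 4 of them by all 14 engineered libraries and 2 by 12. The widest was chr6:58776492-58779403, with 2912 bp, wider than any member, of which the engineered libraries covered a median of 2838.5 bp. Its strongest peak stood at a median fold percentile of 7.49 within the lists. At chr18:107437-109896 and chr18:18518359-18520397 the merged widths were 2460 and 2039 bp, with median fold percentiles of 14.3 and 9.77. At chr16:33962767-33964284 the width was 1518 bp at a percentile of 42.8. At chr10:126773234-126774750 and chr5:1326324-1328012, by contrast, all 15 parental libraries and 3 and 5 engineered libraries had a peak. Batch and a difference of the engineered from the parental cells cannot be told apart.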
